A study of Rattus norvegicus with 30 samples.

Results

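Hearts of sucrose-fed rats that were perfused with mannitol were compared with hearts of chow-fed rats perfused in the same way. The samples were chosen by their titles, which give 5 sucrose and 5 chow hearts with mannitol, 10 of the 30 arrays of the series. The tissue was the left ventricle, and all rats were Sprague Dawley males of 16 to 18 weeks. The sucrose group had been fed a diet high in sucrose over 8 to 10 weeks, which the labels give as a way to make rats insulin resistant, and the other group had eaten chow. All 10 hearts were arrested in the cold, removed under chloral hydrate anaesthesia, and then worked outside the body for 60 min at a filling pressure of 15 and an afterload of 100 cm H2O. The fuels in the Krebs-Henseleit buffer were the ketone bodies hydroxybutyrate, at 10 mmol/L, and acetoacetate, at 1 mmol/L, with propionate added at 2 mmol/L. Calcium was at 2.5 mmol/L. The buffer held no glucose, and 25 mmol/L of mannitol, a sugar alcohol that heart muscle does not burn, served as the osmotic control for the 25 mmol/L glucose of other hearts. The remaining groups, used here for comparison only, were sucrose and chow hearts perfused with that glucose and sucrose and chow hearts frozen without perfusion, 5 each.

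A working heart burns mostly fatty acids, and a diet that causes insulin resistance is known to shift the balance between fat and glucose as fuels. Fatty acids switch on their own oxidation through PPAR-alpha, a nuclear receptor that raises genes for uptake, activation and beta-oxidation of fat, while glucose acts on genes such as Txnip through carbohydrate-sensing transcription factors. With mannitol in place of glucose the buffer offered only ketone bodies and propionate, so the comparison asks which diet differences in transcript levels were present when no sugar was supplied.

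Few differences between the 2 diets could be called with 5 hearts each. Of 18333 genes tested, 1 passed an adjusted p of 0.05, which is 0.00545% of them, and none of the 11304 genes with a symbol did. The gene that passed is known only by its probe, A_64_P072347, which the tables used here do not name. Its normalised signal (intensity after all arrays were scaled to the same 75th percentile) was 9605, 9062, 8392, 8527 and 8209 in sucrose hearts, against 11587, 12336, 11232, 12893 and 11518 in chow hearts. All 5 sucrose hearts lay below all 5 chow hearts. The probe fell by 0.44 on the log2 scale (SE 0.07, 95% interval -0.59 to -0.30, limma adjusted p = 0.016, n = 5 each), a level 1.36-fold lower in sucrose hearts. On the 4 slides that held both diets it was lower in the sucrose heart by 0.31 to 0.62, where the sign follows from that separation. The call was not kept under 12 of 27 other settings, whose differences for this probe all stayed negative.

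Without adjustment 1455 genes (7.94%) had a p under 0.05, 463 higher in sucrose hearts (2.53%) and 992 lower (5.41%). With quantile normalisation, which gives every array the same distribution of signals, 589 were higher (3.21%) and 725 lower (3.95%). The 5 sucrose arrays and the 5 chow arrays did not overlap for 332 genes (1.81%), 92 of them higher (0.502%) and 240 lower (1.31%) in sucrose hearts. Only 7729 genes (42.2%) had a difference above 0, and the median difference was -0.03. The median size of a difference was 0.115, below the median SE of 0.144, and 82 genes (0.447%) differed by more than 2-fold. Values of single genes below are therefore given as measured levels, and, apart from the probe above, no difference passed the adjusted threshold.

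The arrays of the 2 diets were not placed alike. Each of 4 slides carried all 6 groups, but sucrose replicate 1 was alone on another slide and was scanned in another session. The other 4 sucrose arrays lay in row 2 of their slides and all 5 chow arrays in row 1, and all sucrose arrays lay in column 1 against columns 3 and 4 for chow. Array position and diet cannot be told apart in these 10 arrays. Between 50.9% and 73.2% of probes were well above background on sucrose arrays, against 59.9% to 75.4% on chow arrays (means 64.8% ± 8.53 and 69.1% ± 6.24, SD, n = 5, two-sided exact permutation p = 0.413). Negative control spots varied with an SD of 2.85 to 8.62 on sucrose arrays, against 2.36 to 3.68 on chow arrays (exact permutation p = 0.0635, where 0.00794 is the smallest that 252 splits can give). All 10 ventricular cardiomyocyte markers were well above background on all 10 arrays. Group levels of single genes are given as geometric means. The labels call the hearts of a group biological replicates.

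Genes of fatty acid oxidation mostly had lower levels in sucrose hearts. Of 37 tested genes of this list, which joins PPAR-alpha targets with the enzymes of beta-oxidation, 32 were below 0 and 5 above 0, with a median difference of -0.16 against -0.03 over all tested genes. Without adjustment 13 were lower at p under 0.05, where 5.41% of all tested genes were, and 1 was higher (2.53% of all). The arrays did not overlap for 5 lower genes (1.31% of all) and 1 higher gene (0.502% of all). The share below 0 was 86.5%, against 57.8% of all tested genes. Of the 1000 brightest genes 813 were below 0, with a median of -0.10. In the fatty acid list 28 genes were in the brightest of 3 equal groups of tested genes and 12 among the 1000 brightest. The size of the difference depended on scaling. With quantile normalisation the median of the list was -0.07, 28 of 37 were below 0 and 5 were lower at p under 0.05 (3.95% of all). With array row as a term, sucrose replicate 1 alone stood against the chow arrays. In that fit 20 of 37 genes were below 0, against 10046 of all 18333, and the median was -0.10 against -0.04. Without sucrose replicate 1 and the arrays of noisy control spots the median was -0.18, with 33 below 0. Over all tested genes the median was then -0.02, with 10049 of 18333 below 0. The limit for noisy arrays was a control SD of 8, which took out sucrose replicate 5 and left sucrose replicates 2, 3 and 4. The summed signal of the list, in which the brightest genes weigh most, was 909664 to 1036200 in sucrose hearts, against 1083170 to 1193730 in chow hearts. The sums of cytosolic ribosomal proteins were separate too, with 4122980 to 4344930 in sucrose hearts against 4520570 to 4760030 in chow hearts. In levels of the fatty acid list not weighted by brightness the diets overlapped. Sucrose replicate 1 was at -0.013, above chow replicate 4 at -0.018, while the other sucrose hearts lay below every chow heart.

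Among the enzymes, Hadh, the 3-hydroxyacyl-CoA dehydrogenase of the beta-oxidation spiral, had signals of 101692, 110813, 117052, 105743 and 106167 in sucrose hearts, against 137945, 129403, 135489, 130462 and 132706 in chow hearts. The lowest chow heart was above the highest sucrose heart, and the difference was -0.30 (SE 0.07, adjusted p = 0.22). With quantile normalisation it was -0.14. Acot1, a cytosolic acyl-CoA thioesterase induced through PPAR-alpha, had 529, 387, 535, 515 and 554 in sucrose hearts, against 864, 735, 638, 592 and 783 in chow hearts. Again no sucrose heart reached the lowest chow heart (-0.52, SE 0.12, adjusted p = 0.26), and quantile normalisation left the difference at -0.51. Acaa2, the thiolase that ends each round of mitochondrial beta-oxidation, averaged 27283 in sucrose hearts and 36135 in chow hearts (-0.41, SE 0.15), also without overlap. Acsl1, which activates long-chain fatty acids, averaged 51924 in sucrose hearts and 58881 in chow hearts (-0.18, SE 0.07), again without overlap. Cpt1b, the muscle enzyme that admits fatty acids to mitochondria, averaged 64166 in sucrose hearts and 74475 in chow hearts (-0.21, SE 0.08), with overlap.

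**Figure D1:**
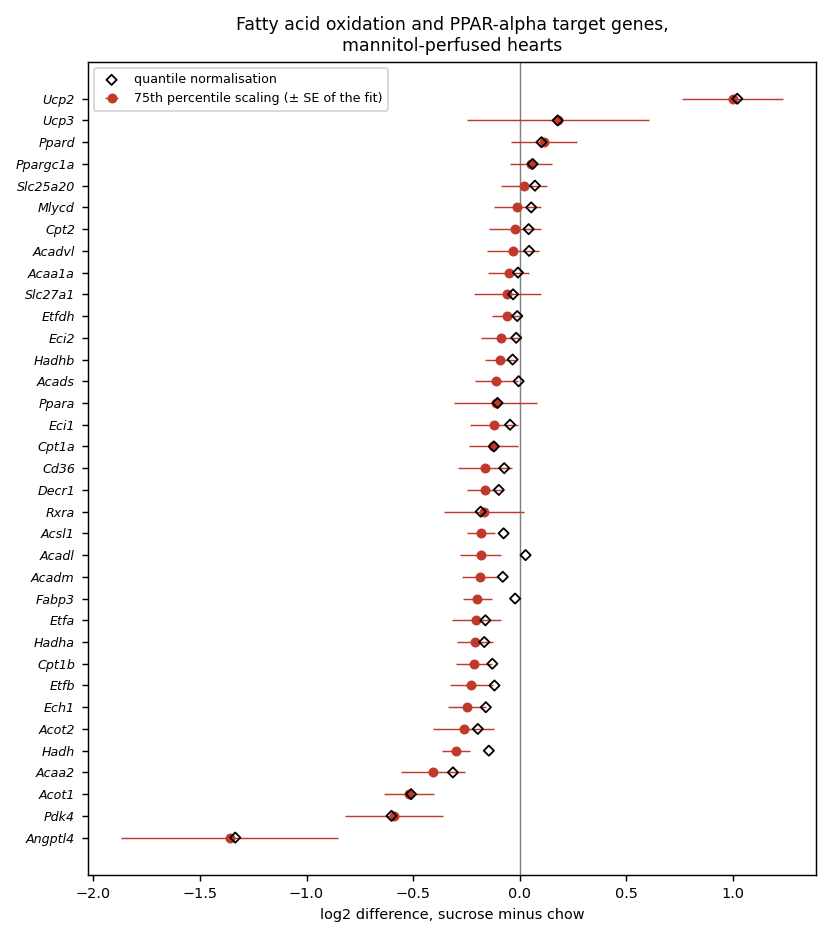
Log2 difference, sucrose minus chow, of 35 of the 37 tested genes of the fatty acid list in mannitol-perfused hearts, with filled points and SE bars for 75th percentile scaling and open diamonds for quantile normalisation. Of the filled points 30 lie left of 0, and the diamonds lie closer to 0 for bright genes such as Hadh, whose difference was -0.30 with the first scaling and -0.14 with the other.

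The gene of that list that was higher in sucrose hearts at an unadjusted p under 0.05 was Ucp2, which encodes a carrier of the inner mitochondrial membrane. Its signals were 1134, 2004, 1506, 1165 and 2322 in sucrose hearts, against 1000.1, 716, 1009, 600.3 and 669.9 in chow hearts. The ranges did not overlap, although the highest chow hearts came close to the lowest sucrose hearts. The level was 2-fold higher in sucrose hearts (1.00, SE 0.24, 95% interval 0.51 to 1.49, adjusted p = 0.31). On each of 4 slides the difference was 0.51 to 1.70, where the sign follows from the separate ranges. Ucp3, its relative of muscle, ranged from 532 to 3126 in sucrose hearts and from 741 to 1448 in chow hearts, so the ranges overlapped (0.18, SE 0.43, and -0.17 without sucrose replicate 1).

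In 3 genes that respond to fasting or fuel, 4 sucrose hearts lay below every chow heart and replicate 1 did not. Angptl4, whose product inhibits lipoprotein lipase, had 10289, 3624, 1909, 5380 and 1246 in sucrose hearts, against 11260, 7124, 8542, 11694 and 6662 in chow hearts. Pdk4, whose kinase keeps pyruvate out of oxidation, had 775, 356, 335, 436 and 317 in sucrose hearts, against 649, 709, 519.6, 675 and 613 in chow hearts. Cyp2e1, a cytochrome P450 that oxidises acetone and ethanol, had 1505, 434, 573, 679.8 and 361 in sucrose hearts, against 1292, 957, 1027, 1195 and 1162 in chow hearts. In all 3 genes replicate 1, the array alone on its slide, held the highest sucrose value, within the chow range for Angptl4 and above every chow heart for Pdk4 and Cyp2e1. The differences were -1.36 for Angptl4 (SE 0.51, adjusted p = 0.49), -0.59 for Pdk4 (SE 0.23, adjusted p = 0.51) and -0.85 for Cyp2e1 (SE 0.28, adjusted p = 0.45). Without that array they were -1.76, -0.81 and -1.17, with adjusted p-values of 0.51, 0.40 and 0.29. On the 4 slides with both diets each of the 3 genes was lower in the sucrose heart, which follows from the values above and is no separate check. With array row as a term, which leaves replicate 1 as the only sucrose array beside the chow row, the 3 differences turned to 0.22, 0.30 and 0.43.

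**Figure D2:**
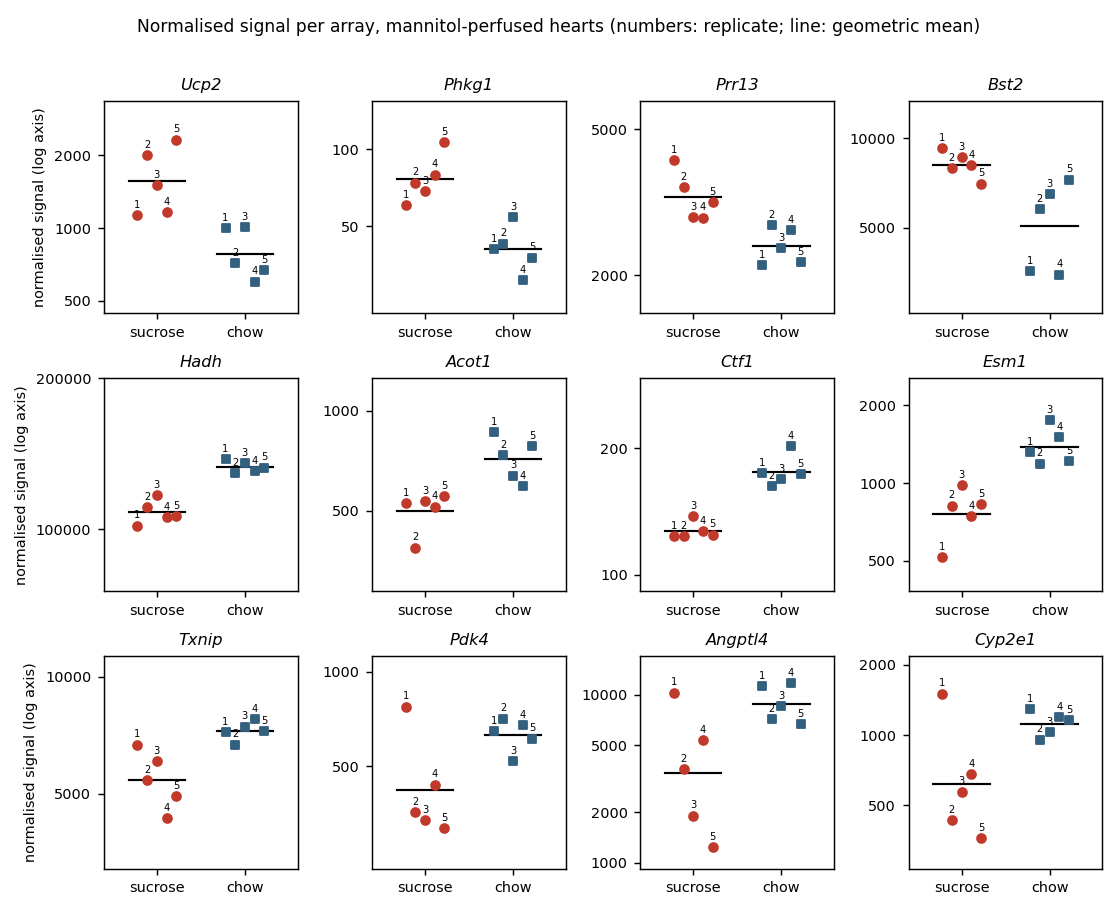
Normalised signal on a log axis for 12 genes in each of the 5 sucrose and 5 chow hearts perfused with mannitol, with the replicate number at each point and the geometric mean as a line. Hadh, Acot1, Ctf1, Esm1 and Txnip had all sucrose points below the chow points, Ucp2, Phkg1 and Prr13 had them above, and sucrose replicate 1 sat apart from the other sucrose hearts, at or above the chow level, for Pdk4, Angptl4 and Cyp2e1.

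Among genes that answer to sugar, Txnip, whose product limits glucose uptake, had 6684, 5426, 6076, 4330 and 4928 in sucrose hearts, against 7197, 6688, 7438, 7785 and 7234 in chow hearts. The arrays did not overlap, but replicate 1 of the sucrose group came close to replicate 2 of the chow group, and the difference was -0.42 (SE 0.19, adjusted p = 0.61). Of the carbohydrate-responsive genes 8 of 14 were above 0, with a median of 0.01. Without sucrose replicate 1 and the arrays of noisy control spots 11 of 14 were below 0 (median -0.07). With array row as a term, where sucrose replicate 1 alone stood against the chow arrays, 8 of 14 were below 0 (median -0.07). Glucose uptake and glycolysis had 17 of 36 above 0 (median -0.01), with Slc2a4, the insulin-dependent glucose transporter, at 16520 in sucrose hearts and 17162 in chow hearts. Slc2a1, the basal transporter, averaged 1637 in sucrose hearts and 1625 in chow hearts, a difference of 0.01 (SE 0.17). Hk2, the muscle hexokinase, averaged 407 in sucrose hearts and 456 in chow hearts (-0.17, SE 0.12), a difference of -0.05 without sucrose replicate 1. Of 17 glycogen genes 6 were above 0 (median -0.04). The one with the smallest p was Phkg1, the catalytic subunit of phosphorylase kinase, with 60.3, 74.0, 68.6, 79.5 and 107 in sucrose hearts, against 40.7, 42.7, 54.1, 30.8 and 37.6 in chow hearts. Every sucrose heart exceeded every chow heart (0.92, SE 0.30, adjusted p = 0.45), at signals close to background.

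The values for enzymes of the buffer's own fuels depended on sucrose replicate 1. Of 15 tested genes of ketone body and propionate use 5 were above 0 and 10 below 0 (median -0.06), and none had a p under 0.05 before adjustment. Without sucrose replicate 1 the median was -0.13 with 12 of 15 below 0, against -0.03 and 10615 of 18333 over all tested genes. Quantile normalisation gave a median of -0.04 with 8 of 15 below 0. With array row as a term, where sucrose replicate 1 alone stood against the chow arrays, the median was 0.20 with 6 of 15 below 0. Bdh1, the hydroxybutyrate dehydrogenase, averaged 823.5 in sucrose hearts and 936 in chow hearts (-0.19, SE 0.20). Oxct1, which activates acetoacetate, averaged 60106 in sucrose hearts and 62608 in chow hearts (-0.06, SE 0.09), a difference that turned to 0.03 with quantile normalisation. Insulin signalling and FOXO targets had 17 of 26 genes below 0 (median -0.09, and -0.08 with quantile normalisation). Pik3r1, the regulatory subunit of PI 3-kinase, had 473, 635, 697, 730.2 and 695 in sucrose hearts, against 772, 772, 849.9, 945 and 863 in chow hearts. Those ranges did not overlap (-0.39, SE 0.11, adjusted p = 0.38, and -0.28 without sucrose replicate 1). Irs2, the insulin receptor adaptor, averaged 4777 in sucrose hearts and 4721 in chow hearts.

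The gene with a symbol that came closest to the threshold was Ctf1, which encodes cardiotrophin-1, a cytokine of the interleukin-6 family known to enlarge heart muscle cells. Its signals were 124, 123, 138, 127 and 125 in sucrose hearts, against 175, 163, 169, 202 and 174 in chow hearts. The groups were separate, and the difference was -0.47 (SE 0.09, adjusted p = 0.15). Esm1, an endothelial proteoglycan gene, had 516, 818, 979.9, 743 and 829.6 in sucrose hearts, against 1319, 1189, 1758, 1503 and 1213 in chow hearts (-0.86, SE 0.21, adjusted p = 0.31). These groups were also separate. The other genes with the smallest p-values among the lower ones were Gsr, the glutathione reductase (-0.43), the zinc finger gene Zfp787 (-0.33), Shisa8 (-0.61), Ceacam9 (-0.34), the corepressor gene Rcor2 (-0.41), Cox7c of respiratory complex IV (-0.39), the transcription factor gene Nfic (-0.37) and Pgls of the pentose phosphate pathway (-0.25). Cox7c and Nfic were the only ones of these 8 whose arrays overlapped. Shisa8 was at -0.41 without sucrose replicate 1. Ceacam9 was among the very bright probes, with 167086 to 220730 in sucrose hearts against 233950 to 275292 in chow hearts, and its difference was -0.10 with quantile normalisation. Csf3, a neutrophil growth factor gene with the smallest p of its inflammatory list, had 108 to 169 in sucrose hearts, against 173 to 223 in chow hearts (-0.54, SE 0.15, adjusted p = 0.39).

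Among genes with higher levels in sucrose hearts, Prr13 had the smallest p. Its signals were 4129, 3479.6, 2885, 2872 and 3169 in sucrose hearts, against 2131, 2747, 2372, 2660.5 and 2176 in chow hearts, with no overlap (0.45, SE 0.11, adjusted p = 0.31). Maged2 (0.37), the tubulin-binding gene Tppp3 (0.42), the zinc finger gene Zfp579 (0.57) and Cpxm2, a carboxypeptidase-like gene (0.71), were also separate between the diets. The value of Cpxm2 rested in part on sucrose replicate 1, which had 404 against 125 to 166 in the other sucrose hearts, and it was 0.42 without that array. Zfp579 was also at 0.42 without that array. Prg4, the lubricin gene (0.63), Cacul1 (0.27), Inha, the inhibin alpha subunit (0.74), and the metallopeptidase gene Nrdc (0.27) overlapped between the diets. Cacul1 was at -0.13 when the probes of a gene were averaged. Fgf11, an intracellular relative of the fibroblast growth factors, was well above background on 4 sucrose arrays and on no chow array. Its mean signals were 29.8 and 9.38 (adjusted p = 0.31). The sucrose mean, which includes the array not above background, was 2.38-fold above a chow limit. That limit was set by the lowest signal called above background on the chow arrays, or the gene's own signal where that was higher. S100a9, a neutrophil protein gene, was above background on 2 sucrose arrays and no chow array, with means of 20.3 and 6.05 (adjusted p = 0.38). Its sucrose mean includes arrays not above background, so no bound on its fold is given.

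The brightest transcripts of the heart had lower signals on every sucrose array than on any chow array with 75th percentile scaling. Scaling each array to the median of its well-measured probes left 800 of the 1000 brightest genes below 0, while the settings that equalise the whole distribution did not. The median signal of the 1000 brightest genes was 44553 to 46945 on sucrose arrays, against 48049 to 49974 on chow arrays, and 813 of these genes had a difference below 0 (median -0.10). With quantile normalisation the median was 0.00 and 493 genes were below 0, with normexp correction it was 0.01 with 482 below 0, and with the authors' deposited values it was -0.02 with 570 below 0, where the median of all genes was -0.11. Unadjusted p-values under 0.05 were split into 135 higher and 519 lower genes in the brightest of 3 equal groups of tested genes. In the middle group the split was 213 higher and 260 lower, and in the dimmest it was 115 higher and 213 lower.

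**Figure D3:**
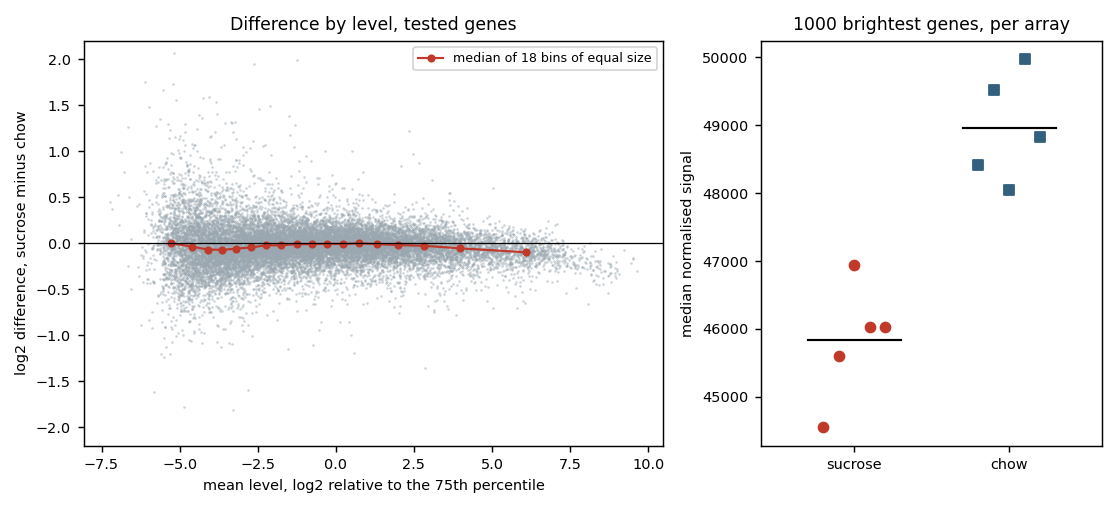
Left, log2 difference, sucrose minus chow, of each of 18333 tested genes against its mean level in log2 units relative to the array's 75th percentile, with the median of 18 bins of equal gene number in red. Right, median normalised signal of the 1000 brightest genes on each array with the group mean as a line, 44553 to 46945 on sucrose arrays and 48049 to 49974 on chow arrays, on an axis that does not start at 0.

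The lists made of such bright genes followed this pattern. Oxidative phosphorylation subunits were below 0 in 69 of 74 genes with a median of -0.13, which was -0.00 with quantile normalisation, with 38 of 74 below 0. Cytosolic ribosomal proteins were below 0 in 73 of 78 genes (median -0.12), against 49 of 78 and -0.03 with quantile normalisation. Ventricular cardiomyocyte markers were below 0 in 10 of 10 genes (median -0.25), and with quantile normalisation in 4 of 10 (median 0.01). Myh7, the slow myosin heavy chain whose share grows in a loaded rat ventricle, averaged 297212 in sucrose hearts and 397449 in chow hearts (-0.42, SE 0.13, adjusted p = 0.44), and its difference was -0.14 with quantile normalisation. Enzymes of the TCA cycle were below 0 in 17 of 24 genes (median -0.08, and 0.02 with quantile normalisation). Under quantile normalisation the median of the fatty acid list was -0.07, against -0.02 over all tested genes. Under normexp correction its median was -0.06 against -0.01, with 27 of 37 genes below 0. The difference between lists was not tested.

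**Figure D4:**
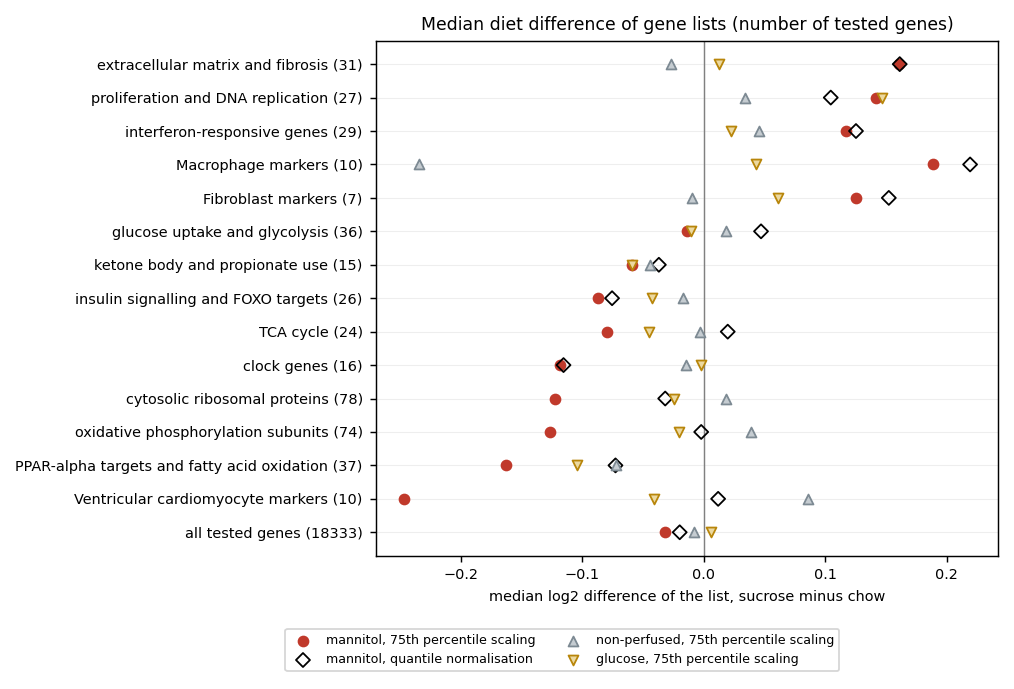
Median log2 difference, sucrose minus chow, of 14 gene lists and of all tested genes, with the number of tested genes in brackets. Filled circles are mannitol hearts with 75th percentile scaling, open diamonds the same hearts with quantile normalisation, and triangles pointing up and down the non-perfused and glucose hearts, and the circles of ventricular, oxidative phosphorylation and ribosomal genes lie at -0.25, -0.13 and -0.12 while their diamonds lie at 0.01, -0.00 and -0.03.

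Genes of connective tissue, of interferon response, of the cell cycle and of macrophages lay mostly on the other side, and kept it under quantile normalisation. Whole tissue was measured, in which more or fewer cells of a type and more or less RNA per cell cannot be told apart. Extracellular matrix genes were above 0 in 27 of 31 (median 0.16, the same with quantile normalisation), and 3 of them, Col15a1, Col3a1 and Timp2, had a p under 0.05 without adjustment in the direction of higher levels in sucrose hearts, against 2.53% of all tested genes. Col3a1, a collagen of fibroblasts, had 18892, 16042, 12175, 16445 and 18291 in sucrose hearts, against 12599.5, 15032, 12925, 10447 and 11337 in chow hearts, so replicate 3 of the sucrose group lay inside the chow range (0.39, SE 0.14, adjusted p = 0.48). Col15a1, a basement membrane collagen, averaged 13137 in sucrose hearts and 9965 in chow hearts (0.40, SE 0.12, adjusted p = 0.44). Proliferation genes were above 0 in 22 of 27 (median 0.14, and 0.10 with quantile normalisation), at low signals. In levels not weighted by brightness the diets overlapped for the matrix list and the proliferation list. Sucrose replicate 3 was at -0.12 and -0.07 for these 2 lists, below chow replicate 3 at 0.05 and 0.09.

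Interferon-responsive genes were above 0 in 24 of 29 (median 0.12, and 0.13 with quantile normalisation). Bst2, an interferon-induced membrane protein gene, had 9249, 7935, 8642, 8108 and 7039 in sucrose hearts, against 3566, 5756, 6491, 3472 and 7259 in chow hearts (0.69, SE 0.25, adjusted p = 0.48). The sucrose hearts were close together and the chow hearts spread over a wider range that reached them. Mx1, an antiviral GTPase gene of the same list, averaged 1608 in sucrose hearts and 992 in chow hearts (0.70, SE 0.29). Without sucrose replicate 1 the median of the list was 0.07 and 18 of 29 genes were above 0. In levels of this list not weighted by brightness the diets overlapped, with -0.10 to 0.30 in sucrose hearts and -0.34 to 0.17 in chow hearts. Macrophage markers were above 0 in 10 of 10 genes (median 0.19, and 0.22 with quantile normalisation). Their summed signal ran from 11695 to 15818 in sucrose hearts and from 11197 to 13246 in chow hearts, so the ranges overlapped, and their part in the other results was not tested.

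Markers of blood stood out in chow replicate 3. The alpha-globin gene Hba-a1 was 40005 there, against 4873 to 7456 in the other 4 chow hearts and 3394 to 9999 in the sucrose hearts. The beta-globin gene Hbb was 17777 in that heart, against 112 to 589.5 in the other chow hearts and 149 to 2972 in the sucrose hearts. Red cell markers were below 0 in 7 of 7 tested genes (median -0.72), but without chow replicate 3 in 3 of 7 (median 0.00). In hearts that were not perfused Hba-a1 averaged 297015 with sucrose and 269279 with chow. Neutrophil markers had 5 tested genes with a summed signal of 106 to 149.5 in sucrose hearts and 104 to 135 in chow hearts. Of these genes 2 were above 0 and 3 below 0 (median -0.04). Adipocyte markers had 6 tested genes with a summed signal of 44338 to 49456 in sucrose hearts and 47046 to 53890 in chow hearts, and 4 listed ones were above background on none of these arrays. Of the 6 tested genes 5 were below 0, with a median of -0.17, beside -0.16 for the fatty acid list. The median of these markers was -0.15 with quantile normalisation and -0.23 without sucrose replicate 1 and the arrays of noisy control spots, and their part in the fatty acid result was not tested. Leaving out chow replicate 3 gave a median of -0.14 for the fatty acid list, with 31 of 37 genes below 0.

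Fos, Atf3, Il6 and Hmox1, genes known to respond to stress, had overlapping levels in the 2 diets. Fos averaged 6082 in sucrose hearts and 5965 in chow hearts (0.03, SE 0.67), and Atf3 averaged 45691 in sucrose hearts and 51148 in chow hearts (-0.16, SE 0.40). Il6 averaged 54.9 in sucrose hearts and 52.0 in chow hearts (0.08, SE 0.31), and Hmox1, which degrades heme, averaged 592 in sucrose hearts and 751 in chow hearts (-0.34, SE 0.28). Nppa, the atrial natriuretic peptide gene, ranged widely in both diets, from 2074 to 8814 in sucrose hearts and from 1217 to 9519 in chow hearts. Nppb, the other natriuretic peptide gene, averaged 71630 in sucrose hearts and 95496 in chow hearts (-0.41, SE 0.33). Mt1, a metallothionein gene, had 25086, 14826, 17349, 20304 and 23450 in sucrose hearts, against 25898, 39966, 42866, 34423 and 23046 in chow hearts (-0.70, SE 0.21, adjusted p = 0.41). Its ranges overlapped through replicate 5 of the chow group, while the other 4 chow hearts exceeded every sucrose heart.

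The diet difference with mannitol was set beside that of non-perfused and of glucose-perfused hearts, which share no array with it. No gene passed the adjusted threshold in either (0% each, limma, smallest adjusted p 0.86 and 0.57), with 612 genes (3.34%) and 804 genes (4.39%) at an unadjusted p under 0.05. Arrays of the 2 diets did not overlap for 92 genes (0.502%) without perfusion and for 149 genes (0.813%) with glucose. The tests of the difference between diet differences also called no gene, with 1131 genes (6.17%) at an unadjusted p under 0.05 for mannitol against no perfusion and 918 genes (5.01%) for mannitol against glucose (smallest adjusted p 0.18 and 0.24). All non-perfused arrays lay in row 1 of their slides and all glucose arrays in row 2. Only the mannitol comparison set arrays of different rows against each other. Its counts and the tests between states therefore carry array row as well as diet, and the part of row was not tested. Across all tested genes the differences with mannitol had a correlation of 0.09 with those with glucose and of -0.04 with those without perfusion, where genes are not independent replicates.

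Some of the leading genes had differences of the same sign and similar size in both perfusions. Ucp2 was at 1.00 with mannitol, 0.05 without perfusion and 0.82 with glucose, and its levels without perfusion were 1646 in sucrose hearts and 1593 in chow hearts. Angptl4 was at -1.36 with mannitol, 0.05 without perfusion and -0.999 with glucose, where it averaged 6533 in sucrose hearts and 13062 in chow hearts. Phkg1 was at 0.92 with mannitol, -0.01 without perfusion and 0.74 with glucose. For Ucp2, Angptl4 and Phkg1 the test of mannitol against no perfusion gave 0.95, -1.41 and 0.93, with adjusted p-values of 0.75, 0.81 and 0.78. Mt1 and Cyp2e1 had differences of the same sign in all 3 states. Mt1 was at -0.70 with mannitol, -0.68 without perfusion and -0.78 with glucose, and Cyp2e1 was at -0.85, -0.62 and -0.61 in the same order. The fatty acid list had 26 of 37 genes below 0 without perfusion (median -0.07) and 33 of 37 with glucose (median -0.10). The macrophage markers had a median of -0.23 without perfusion and 0.04 with glucose, and the matrix genes of -0.03 and 0.01. For the proliferation genes these medians were 0.03 and 0.15, with 11 and 4 of 27 genes below 0.

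For other genes the differences in the other states were closer to 0 or of the other sign. Hadh was at -0.30 with mannitol, 0.05 without perfusion and -0.11 with glucose. Txnip was at -0.42 with mannitol and at -0.01 both without perfusion and with glucose, where it averaged 13023 in sucrose hearts and 13080 in chow hearts. Ctf1 was at -0.47 with mannitol, 0.18 without perfusion and 0.00 with glucose (difference between mannitol and no perfusion -0.65, adjusted p = 0.34). Rbm48, an RNA-binding protein gene with the smallest p of a gene with a symbol for mannitol against glucose, was at -0.41 with mannitol, 0.23 without perfusion and 0.48 with glucose (difference -0.89, adjusted p = 0.45). None of these differences between states passed the threshold, so a diet difference particular to mannitol was not shown for any gene. Defb1, a defensin gene, was at -1.61 without perfusion and -1.58 with glucose but at -0.05 with mannitol, where it was above background on 1 sucrose array and 2 chow arrays.

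**Figure D5:**
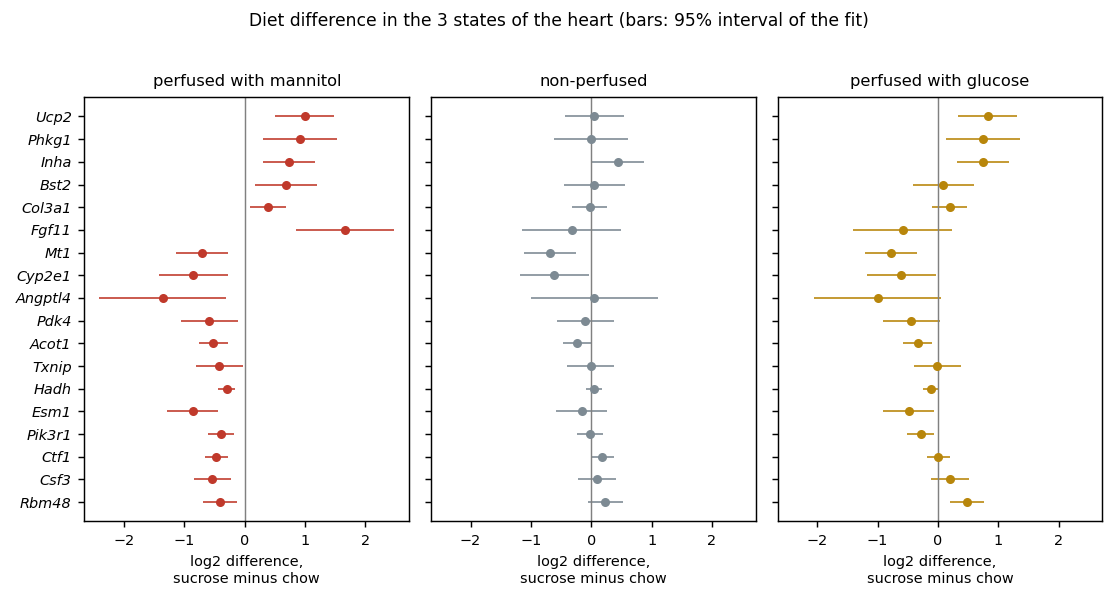
Log2 difference, sucrose minus chow, with the 95% interval of the limma fit for 18 genes in hearts perfused with mannitol (left), not perfused (middle) and perfused with glucose (right), 5 arrays per diet and state. Ucp2 and Phkg1 lie near 0 without perfusion and between 0.74 and 1.00 in both perfusions, Mt1 lies between -0.78 and -0.68 in all 3 states, and Txnip lies at -0.42 with mannitol and at -0.01 in both other states.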

How the data were processed

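Rat left ventricle RNA was measured on 30 one-colour Agilent arrays, 5 per group. Per the file headers, the deposited processed signal is an intensity that was background-subtracted and detrended within each array. The headers name Feature Extraction 11.0.1.1 and the submitters' processing notes 10.3. The authors' deposited series table holds log2 values with array medians of 7.23 to 7.24, whose scaling is not given in the sources used here. These values followed the log2 of the scanner's own signal after background subtraction, with a correlation of at least 0.998 on each array.

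Spots of a probe were averaged without outlier spots, and the 75th percentile of an array's log2 signals was taken off all of them. Probes were looked up by RefSeq accession or Ensembl identifier, which named 18355 of 30367, and the brightest probe stood for a gene. A gene was tested if it stood well above background in 4 or more of the 5 arrays of any group (18333 of 26785) with limma 3.58.1 in R 4.3.3, with 1 mean for each of 6 groups over 30 arrays. P-values were adjusted by the Benjamini-Hochberg method over all tested genes, with 0.05 as the threshold. The fit was tested on simulated data. The number of arrays limits the precision. No probe was saturated.

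Named genes were, of those with a symbol, the 12 with the smallest p in each direction, the smallest p of each of 51 lists, genes given in advance and 4 per test between states. Acaa2, Acsl1, Cpt1b, Mx1 and Timp2 were named after their values were seen. The members and lists were chosen with earlier results of these data known. Arrdc4 was given in advance and was not among the tested genes. Some genes are not reported here. Alternatives are given in the closing section.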

Additional observations from a re-analysis of the deposited data

Results flagged for a closer look

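In 11 of 198 sets of 5 values examined, each a named gene or an array quality measure in 1 diet, the highest or lowest array of a mannitol group stood apart from the other 4 by Dixon's criterion at the 95% level, which chance passes in about 1 of 20 groups. In sucrose hearts, Cpxm2 was 404 in replicate 1 against 125 to 166 in the others, Shisa8 was 223 in replicate 1 against 426 to 459.8, and Hk2 was 295 in replicate 1 against 429.7 to 449. Acot1 was 387 in replicate 2 against 515 to 554, Scd was 84.4 in replicate 2 against 21.2 to 30.5, and Ctf1 was 138 in replicate 3 against 123 to 127. In chow hearts, Hba-a1 was 40005 in replicate 3 against 4873 to 7456, and Npy was 125 in replicate 3 against 22.4 to 28.9. Tpm1 was 351701 in replicate 4 against 292203 to 305945, Psmd10 was 688 in replicate 4 against 919.6 to 997, and Flt1 was 347 in replicate 4 against 258 to 271.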

How the results depend on the processing

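The single call with mannitol was kept under 15 of 27 alternatives. No gene was called with normexp correction (1111 genes at an unadjusted p under 0.05), with the authors' deposited values (559), with a replicate block (1356), with only the compared groups in the fit (1264), without the arrays of high control spread (1377), or, an alternative chosen after seeing the data, also without the array alone on its slide (907). Leaving out each mannitol array in turn gave 0 to 1 calls (1088 to 1731 genes unadjusted), with 0 without sucrose replicates 3, 4 and 5 and without chow replicates 2 and 4. With array row as a term 593 genes were called (200 higher, 393 lower), and 314 and 186 in the tests against no perfusion and against glucose, but that fit rests on sucrose replicate 1 as the only sucrose array in row 1. Array weights called 3 genes with glucose. The cause was not tested in these cases. The replicate block changed no other count, and the numbers are no pairing: same-numbered mannitol arrays deviated with correlations of -0.32 to -0.04, and 0 of 5 matched their own number best.

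The sign of a difference turned in these cases. With array row it was 0.30 for Pdk4, 0.22 for Angptl4, 0.43 for Cyp2e1, 0.023 for Cpt1a, 0.28 for Aqp7, 0.12 for Slc2a4, -0.12 for Nppa and 0.35 for Atf3. With array weights it was -0.0047 for Ucp3, 0.078 for Defb1, -0.098 for Slc2a1 and 0.050 for Atf3. With the authors' values it was -0.43 for Mcpt1, -0.10 for Slc2a1, 0.052 for Oxct1 and -0.11 for Il6, and with averaged probes -0.13 for Cacul1. With normexp it was 0.014 for Myl4, 0.059 for Defb1, -0.045 for Slc2a1 and -0.0064 for Il6, and with quantile normalisation 0.011 for Slc2a4 and 0.031 for Oxct1. With slide as a fixed block it was -0.029 for Mcpt1, -0.18 for Ucp3, 0.15 for Defb1, -0.093 for Irs2 and -0.079 for Slc2a1, and as a random block -0.0079 for Irs2 and -0.012 for Slc2a1. Without the arrays of high control spread it was -0.018 for Slc2a1 and 0.0084 for Oxct1, and also without the array alone on its slide -0.32 for Ucp3, -0.0020 for Irs2, -0.13 for Slc2a1 and 0.011 for Oxct1. Leaving out single arrays gave -0.029 to 0.29 for Mcpt1, -0.17 to 0.47 for Ucp3, -0.40 to 0.19 for Defb1, -0.091 to 0.13 for Irs2, -0.11 to 0.11 for Slc2a1, -0.10 to 0.0084 for Oxct1, -0.22 to 0.20 for Fos, -0.034 to 0.29 for Il6, -0.61 to 0.0058 for Npy and -1.69 to 0.20 for Hbb. The authors' values shift the median of all genes to -0.11. Dim genes such as Fgf11, S100a9 and Defb1 are limited by signal over background.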
